A study of Mus musculus with 24 samples.

Results

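Colony-stimulating factors (CSFs) are secreted proteins that support the survival, growth and function of myeloid cells. CSF1 (M-CSF) and IL-34 are the ligands of CSF1R, which marks microglia and other macrophages. GM-CSF, encoded by Csf2 and made by T cells and other sources, signals through an alpha chain (Csf2ra) paired with the beta chain encoded by Csf2rb, and G-CSF (Csf3) signals through the neutrophil growth factor receptor CSF3R. GM-CSF is known from experimental autoimmune encephalomyelitis (EAE), a mouse model of multiple sclerosis, as a factor that acts on infiltrating monocytes. The 8 genes of this system were listed by name, not by their values, although earlier results of these data were known. Of these, 7 had a named probe set among the 17097 genes read from the array, each represented by its brightest probe set that carried a single symbol, and Csf2ra was not analysed here.

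The arrays were hybridised with RNA from spinal cords of female mice aged 8 to 12 weeks. Naive wt and Naive Act1 KO mice (5 arrays each) received no cells and no irradiation. Th1 wt (5 arrays), Th17 wt (5 arrays) and Th17 Act1 KO (4 arrays) mice were irradiated with 500 rad and 4 h later received T cells that recognise the myelin peptide MOG35-55. Those T cells came from draining lymph nodes (and, per the methods but not the labels, spleens) of mice immunised 10 days earlier and were cultured for 5 days with 25 μg/ml of the peptide, under IL-12 with an antibody to IL-23p19 for Th1 or under IL-23 for Th17. Transfer and irradiation are therefore one contrast against naive mice, and their parts cannot be told apart. The labels place collection at the onset of symptoms, whereas the methods place it at the peak of disease, 12 days after transfer. The genotype labels give the recipient, as do the methods, in which Act1 KO mice were given Th17 cells only. The design text can be read as naming the cells, and the Act1 KO allele is not described in the sources used here.

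Act1, encoded by Traf3ip2, is the adaptor that couples the IL-17 receptor to its signalling. Its probe set cannot check the genotype label, since it read higher under the KO label: 5.56 ± 0.24 (SD, n = 5) in Naive Act1 KO against 4.29 ± 0.20 (SD, n = 5) in Naive wt mice. Where the probes lie relative to the deletion is not given in the sources used here, so Act1 KO below means arrays labelled so. Values are log2 RMA intensities, on which 1 unit is a doubling, and the median of all values was 3.52. A group mean below that median was treated as near background, and a fold against it is given as a lower bound. Arrays of one group correlated at r = 0.986 to 0.997 over all genes. Th1 wt replicates 4 and 5 stood apart from the other Th1 wt arrays on the first principal component (55.0 and 55.9 against 67.8 to 68.5), and the comparisons that rest on them are also given without them. The titles carry a code of a letter and a number whose meaning is not stated. No Th1 wt array shares its number with another group, so that number and Th1 transfer cannot be told apart, whereas letters are shared.

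In wild-type recipients the receptors moved most. Csf2rb, Csf3r, Csf1r, Csf1 and Csf2 were higher than in naive cords in both Th17 and Th1 recipients, whereas Il34 and Csf3 passed the test in neither. The rise in Th17 recipients was at least 46.7-fold for the brightest Csf2rb probe set, 7.67-fold for Csf3r and 4.51-fold for Csf1r. The other Csf2rb probe sets rose less, by 3.60 and 2.21 log2 units. In Act1 KO recipients of Th17 cells, none of the 7 genes differed from naive Act1 KO cords by the same test, and neither did any other of the 17097 genes. In a sample of whole cord, more cells of a type and more RNA per cell cannot be told apart.

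Calls come from 1 limma fit to all 24 arrays with Benjamini-Hochberg adjustment over all 17097 genes at an adjusted p of 0.05. The count was 5 of 7 members higher in Th17 wt than Naive wt cords, where 18.0% of all genes were called higher, and 5 of 7 in Th1 wt cords, where 16.7% were. The median difference of the 7 members was 1.35 (Th17) and 1.16 (Th1), beside -0.05 and -0.06 over all genes. The Th17 and Th1 comparisons share the naive arrays. With arrays scaled to 63 ribosomal protein genes instead, all genes shifted by a median of -0.43 and -0.49, the 5 members were still called higher in both, and Il34 and Csf3 were called lower.

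**Figure D1:**
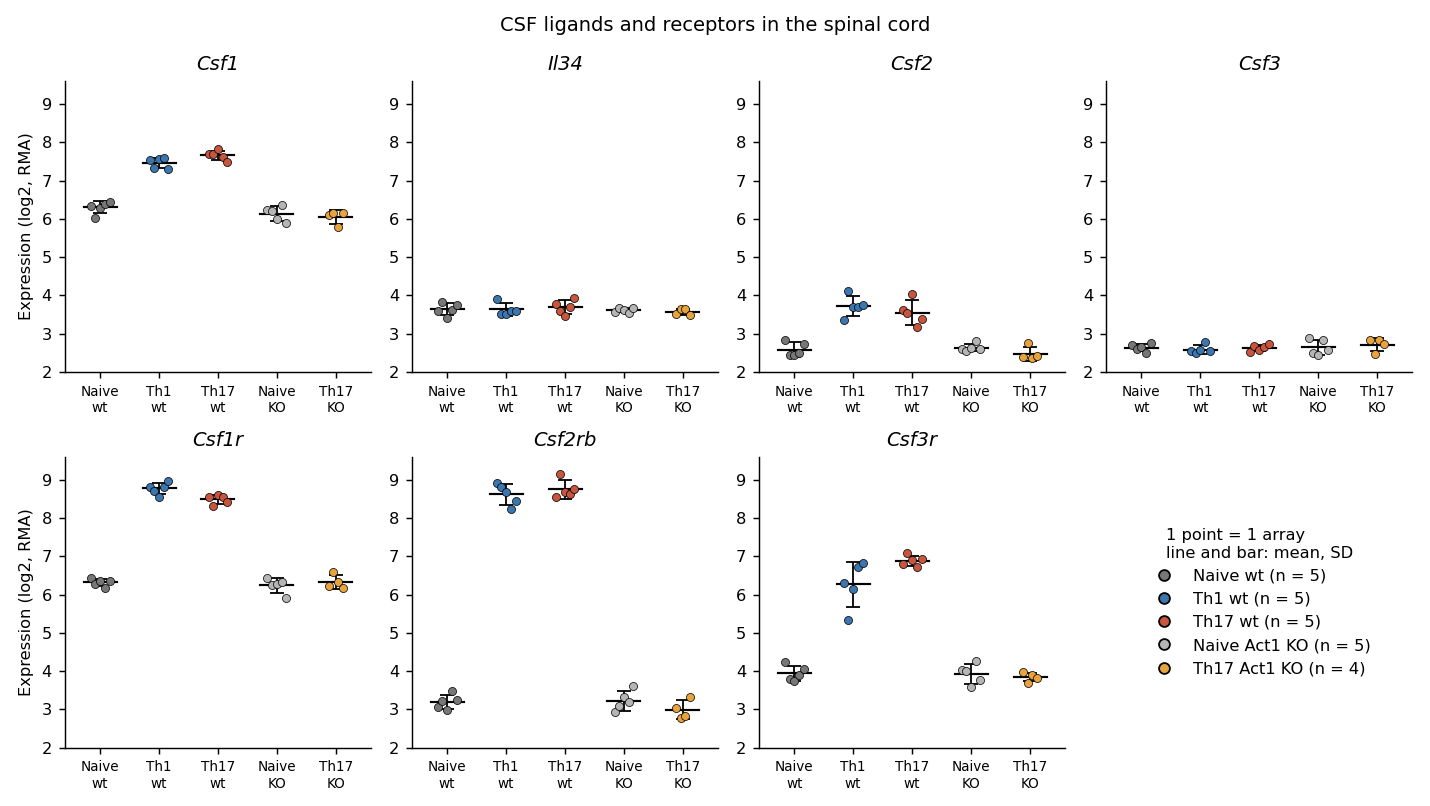
Log2 RMA expression of the 7 genes with a named probe set (vertical axis) on each of the 24 arrays, by group, with the group mean and SD. All 10 wild-type recipient arrays lie above all naive arrays for Csf1, Csf2, Csf1r, Csf2rb and Csf3r. The Th17 Act1 KO arrays lie near the naive arrays and below all wild-type recipient arrays for these 5 genes. The share of all genes that separate these groups was not counted. Il34 and Csf3 overlap between all groups.

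Csf2rb, the signalling chain shared by the receptors for GM-CSF, IL-3 and IL-5, read 3.07, 3.23, 2.99, 3.47 and 3.24 in Naive wt cords. It read 8.54, 9.15, 8.67, 8.62 and 8.75 in Th17 wt cords and 8.91, 8.80, 8.69, 8.24 and 8.44 in Th1 wt cords. The lowest recipient array (8.24) thus lay far above the highest naive array (3.47). The difference was 5.55 ± 0.14 (SE) for Th17 (adjusted p = 1.23e-21, limma) and 5.42 ± 0.14 for Th1 (at least 42.7-fold, adjusted p = 2.17e-21, limma). In an exact two-sided permutation test over arrays, p was 0.00794 in each, the smallest that 5 against 5 arrays can give. The same p was reached by the other 4 called members in both comparisons. The share of all genes that reach it was not counted.

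Csf2rb has 3 named probe sets, and mice carry a closely related neighbouring gene, Csf2rb2, which encodes an IL-3-specific beta chain and also lies on chromosome 15. The other Csf2rb probe sets differed by 3.60 and 2.21 in Th17 and by 3.86 and 2.17 in Th1 recipients, so the sets called the same direction and differed in size. With the 3 sets averaged, the Csf2rb difference was 3.78 (Th17) and 3.82 (Th1), in place of 5.55 and 5.42. Csf2rb2 rose by 4.12 ± 0.11 (SE) in Th17 (at least 17.4-fold, adjusted p = 2.29e-21, limma) and by 4.09 ± 0.11 in Th1 recipients. Because the transcripts are alike, signal may be shared between the 2 genes, and their separate levels are uncertain. Of the other genes of this receptor family, the IL-3 receptor alpha chain Il3ra rose by 0.78 and 0.89 (adjusted p = 4.1e-06 and 6.98e-07, limma), while Il3, Il5 and Il5ra passed the test in neither comparison.

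**Figure D2:**
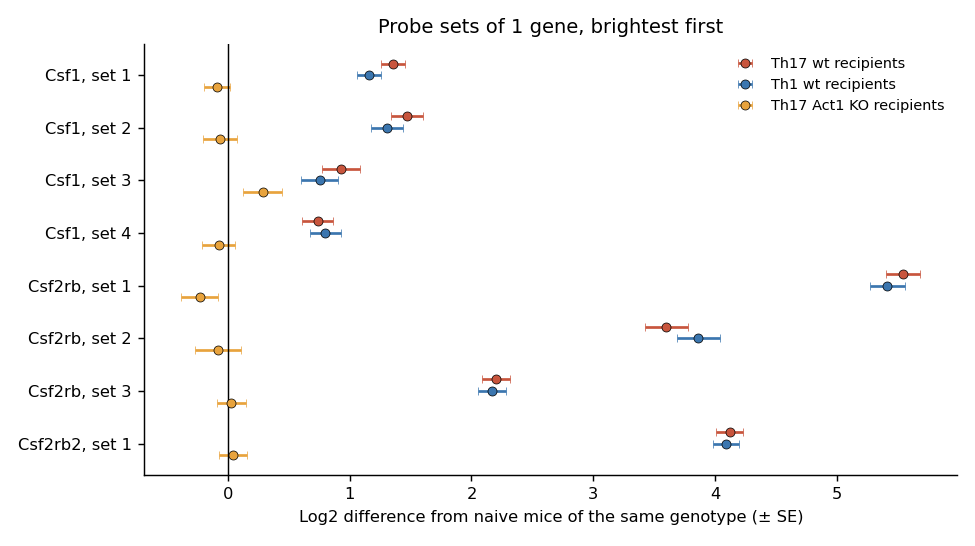
Log2 difference from naive mice of the same genotype (horizontal axis, ± SE) for each named probe set of Csf1, Csf2rb and Csf2rb2, brightest first. All 8 probe sets lie above 0 in wild-type Th17 and Th1 recipients, from 0.74 to 5.55, and the sets of 1 gene differ in size.

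Csf1r, the receptor tyrosine kinase for CSF1 and IL-34, read 6.42, 6.28, 6.36, 6.17 and 6.36 in Naive wt cords. It read 8.56, 8.30, 8.61, 8.54 and 8.43 in Th17 wt cords and 8.80, 8.72, 8.55, 8.82 and 8.97 in Th1 wt cords. The groups of recipients did not overlap the naive group. Csf1r rose by 2.17 ± 0.10 (SE) in Th17 (adjusted p = 2.79e-16, limma) and by 2.46 ± 0.10 in Th1 recipients (5.48-fold, adjusted p = 1.95e-17, limma). Unlike Csf2rb, it was well above the median in naive cords too, at 6.32 ± 0.10 (SD, n = 5).

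Csf3r, the G-CSF receptor, read 4.23, 3.80, 3.75, 3.89 and 4.06 in Naive wt cords. It read 6.80, 7.08, 6.89, 6.73 and 6.92 in Th17 wt cords and 6.29, 5.34, 6.14, 6.72 and 6.83 in Th1 wt cords. The Th1 arrays were the more spread of the 2 (SD 0.59 against 0.13), with replicate 2 lowest. Csf3r rose by 2.94 ± 0.18 (SE) in Th17 (adjusted p = 3.11e-13, limma) and by 2.32 ± 0.18 in Th1 recipients (4.99-fold, adjusted p = 5.15e-11, limma). Without Th1 wt replicates 4 and 5 the Th1 difference was 1.98 (adjusted p = 5.6e-10, limma).

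Csf1, the ligand that maintains macrophages and microglia, read 6.35, 6.03, 6.30, 6.40 and 6.44 in Naive wt cords. It read 7.69, 7.69, 7.81, 7.60 and 7.48 in Th17 wt and 7.53, 7.33, 7.56, 7.58 and 7.31 in Th1 wt cords. The recipients again lay wholly above the naive mice. Csf1 rose by 1.35 ± 0.10 (SE; 2.56-fold, adjusted p = 1.17e-11, limma) and 1.16 ± 0.10 (2.23-fold, adjusted p = 3.2e-10, limma) in Th17 and Th1 recipients. Its 3 other probe sets rose too, by 1.47, 0.93 and 0.74 in Th17 and by 1.31, 0.75 and 0.80 in Th1 recipients. Il34, the other ligand of CSF1R, ranged from 3.42 to 3.93 over all 24 arrays, and its Th17 difference was 0.05 (95% interval -0.14 to 0.23).

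Csf2, encoding GM-CSF, read 2.84, 2.44, 2.44, 2.49 and 2.73 in Naive wt cords. It read 3.62, 3.55, 4.04, 3.17 and 3.40 in Th17 wt and 3.37, 4.11, 3.70, 3.70 and 3.75 in Th1 wt cords. All 10 recipient arrays exceeded the naive ones, yet the group means of 3.55 and 3.73 stayed close to the median of all values. Csf2 rose by 0.97 ± 0.13 (SE; at least 1.95-fold, adjusted p = 1.06e-06, limma) in Th17 and by 1.14 ± 0.13 (at least 2.20-fold, adjusted p = 9.27e-08, limma) in Th1 recipients. Csf3, encoding G-CSF, stayed below that median on all 24 arrays (2.44 to 2.88), and its differences were -0.01 (95% interval -0.20 to 0.18) and -0.05 (-0.24 to 0.14). The ligand of the G-CSF receptor was thus near background on arrays where the receptor was 7.67-fold higher.

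Upstream sequences are shown for Csf1, Csf2 and Csf3r because these 3 rose together and are in the promoter table used. The table holds Csf2ra as well, and Csf3, Il34, Csf2rb and Csf1r have no entry in it. Each is the 250 bases before the RefSeq gene start in GRCm38.p6, read along the gene's strand, which is plus for Csf3r and minus for Csf1 and Csf2. Capitals mark a match to 1 of 5 motifs searched on both strands.
Csf1, chr3:107760470-107760719: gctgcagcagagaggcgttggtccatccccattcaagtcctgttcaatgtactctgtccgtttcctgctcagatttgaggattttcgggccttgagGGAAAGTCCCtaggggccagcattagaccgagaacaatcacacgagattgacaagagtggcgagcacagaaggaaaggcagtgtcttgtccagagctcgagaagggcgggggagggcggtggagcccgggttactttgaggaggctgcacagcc
Csf2, chr11:54249900-54250149: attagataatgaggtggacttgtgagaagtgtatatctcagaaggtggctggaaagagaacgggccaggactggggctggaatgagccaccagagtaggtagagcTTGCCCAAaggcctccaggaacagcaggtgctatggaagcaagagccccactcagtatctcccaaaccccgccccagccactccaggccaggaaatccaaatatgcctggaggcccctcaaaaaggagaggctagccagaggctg
Csf3r, chr4:126024409-126024658: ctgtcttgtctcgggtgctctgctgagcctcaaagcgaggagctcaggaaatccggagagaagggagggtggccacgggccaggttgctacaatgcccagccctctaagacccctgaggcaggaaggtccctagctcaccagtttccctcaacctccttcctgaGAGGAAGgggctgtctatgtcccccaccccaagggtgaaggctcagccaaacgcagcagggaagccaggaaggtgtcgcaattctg
The Csf1 match is a kappa B consensus motif on the opposite strand, 154 to 145 bases before the start, found in 3.90% of 32851 windows of this length. The Csf2 match is a C/EBP-type motif (TTNNGCAA) on the opposite strand at 145 to 138 bases, held by 9.56% of windows. The Csf3r match is a PU.1-type motif (GAGGAAG) on the gene's strand at 86 to 80 bases, held by 10.6%. A STAT-type motif (TTCNNNGAA, 7.02% of windows) and an AP-1 motif (TGANTCA, 6.75%) had no match in these 3 windows. A match describes letters only, not a bound site, and the annotated start need not be the one used in these cords.

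Th17 and Th1 recipients were compared directly to see whether the 2 polarised T cell types left different CSF profiles. None of the 7 members was called, where 3.00% of all genes were, although Csf3r and Csf1r had an unadjusted p under 0.05 in limma. Csf3r was 0.62 ± 0.18 (SE) higher in Th17 cords (95% interval 0.24 to 1.00, adjusted p = 0.0665, limma). An exact two-sided permutation test of Csf3r over the 5 and 5 arrays gave p = 0.0317. Csf1r was lower in Th17 cords by 0.28 (95% interval 0.08 to 0.49 lower, adjusted p = 0.149, limma), and within the 3 title code letters that hold both groups it ran from -0.50 to 0.01. The intervals were -0.01 to 0.40 for Csf1, -0.45 to 0.10 for Csf2 and -0.16 to 0.42 for Csf2rb, so differences of that size are not excluded by these arrays.

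The Csf3r comparison turned on single Th1 arrays. Without Th1 wt replicate 4 it was 0.73 (adjusted p = 0.0302, limma), without replicate 5 it was 0.76 (adjusted p = 0.017), and without both it was 0.96 (adjusted p = 0.00126). Replicates 4 and 5 read highest of the Th1 group (6.72 and 6.83), so leaving them out had to raise the difference. Without replicate 2, the single array that carries its title code number, the difference was 0.39 (adjusted p = 0.165, limma). That array read lowest of the group, so leaving it out had to reduce the difference. Within the 3 letters of the title code that hold both groups it was positive, from 0.06 to 0.79.

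Csf3r did not follow the neutrophil marker list across the Th1 arrays. The mean of the 12 measured neutrophil markers was 4.05, 3.75, 3.56, 3.26 and 3.29 in Th1 wt replicates 1 to 5, and 4.33 to 4.87 in Th17 wt cords, against 2.86 to 3.30 in Naive wt cords. Replicates 4 and 5, with the highest Csf3r of the Th1 group, had neutrophil means inside the naive range. Its top was set by Naive wt replicate 3 (3.30), and both means lay above the other Naive wt arrays (2.86 to 3.09). Of the 12 markers, 8 in Th1 wt and 10 in Naive wt cords had a group mean below the median of all values. The list mean thus holds mostly genes near background in these groups. The calprotectin subunit S100a9, abundant in neutrophils, read 3.97 and 3.80 in replicates 4 and 5 and 3.57 in replicate 3. It read 3.24 to 4.26 in Naive wt cords, with 4.26 in replicate 3 and at most 3.66 in the others, and 7.85 to 9.38 in Th17 wt cords. Its partner S100a8 read 5.79 and 5.34 in replicates 4 and 5, above the naive 2.65 to 3.83. Il1r2, another marker of the list, read 3.23 and 3.25 there, above the naive 2.54 to 2.93. The same 2 arrays had the highest homeostatic microglia mean of the Th1 group, 6.28 and 6.18 against 5.89 to 6.12 in the other 3. That list was mixed, with 5 of 10 markers higher and 4 lower in Th1 wt than Naive wt cords. Replicates 4 and 5 had the lowest monocyte and macrophage means of the Th1 group, 8.24 and 8.27 against 8.46 to 8.75. Their T cell means were also the lowest, 5.52 and 5.51 against 5.63 to 5.83. The part of any cell type in the Csf3r level was not tested.

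**Figure D3:**
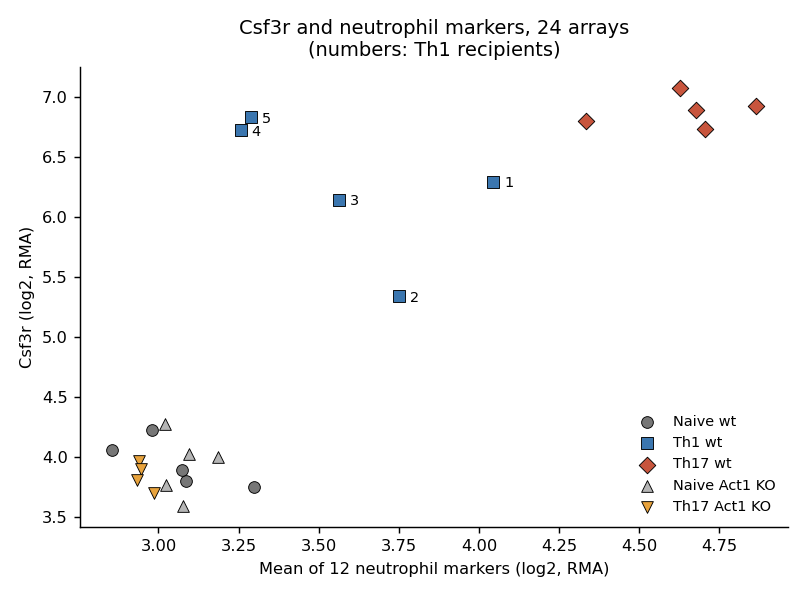
Csf3r (vertical axis) against the mean of 12 neutrophil markers (horizontal axis), both log2 RMA, on 24 arrays, with the Th1 recipients numbered by replicate. Th1 replicates 4 and 5 combine Csf3r of 6.72 and 6.83 with neutrophil means of 3.26 and 3.29. These means lie below Naive wt replicate 3 (3.30) and above all other naive arrays. Th17 wt arrays are high on both axes. Most of the 12 markers had group means below the median of all values in naive and Th1 cords.

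Recipients labelled Act1 KO were examined to learn whether the CSF response to Th17 cells differed by genotype. Csf2rb read 3.05, 2.78, 2.83 and 3.34 in the 4 Th17 Act1 KO cords and 2.92, 3.10, 3.32, 3.20 and 3.62 in the 5 Naive Act1 KO cords. Csf1r read 6.22, 6.59, 6.33 and 6.16 against 6.42, 6.26, 6.27, 6.33 and 5.92. Csf3r read 3.97, 3.70, 3.90 and 3.81 against 4.02, 4.00, 3.59, 4.28 and 3.76. The groups overlapped for all 3 receptors, as they did for Csf1, Csf2, Il34 and Csf3. The share of all genes whose groups overlap here was not counted.

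No member was called in that comparison, and neither was any other gene (0% of 17097, smallest adjusted p = 0.0704, limma). At an unadjusted p under 0.05 it held 1070 genes and 0 members, and limma with array weights called 8 genes, none of them a member. The 95% intervals ran from -0.54 to 0.08 for Csf2rb, -0.13 to 0.30 for Csf1r, -0.48 to 0.31 for Csf3r, -0.31 to 0.12 for Csf1 and -0.45 to 0.13 for Csf2. None of them reaches the rise seen in wild-type recipients. Between the naive groups of the 2 genotypes no member was called, where 0.585% of all genes were, and the 95% intervals of the 7 members lay between -0.39 and 0.36.

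Against Th17 wt cords, 5 of 7 members were lower in cords labelled Th17 Act1 KO, where 17.6% of all genes were called lower. Csf2rb was lower by 5.75 ± 0.15 (SE; at least 53.8-fold for its brightest probe set, adjusted p = 2.59e-21, limma). Its other probe sets were lower by 3.77 and 2.13. Csf3r fell by 3.04 ± 0.19 and Csf1r fell by 2.16 ± 0.10. Csf1 fell by 1.61 ± 0.11 and Csf2 fell by 1.08 ± 0.14. The Th17 response itself differed between genotypes (interaction term) for the same 5 genes, by -5.78 for Csf2rb, -3.02 for Csf3r, -2.09 for Csf1r, -1.45 for Csf1 and -1.12 for Csf2 (adjusted p at most 5.1e-05, limma), with 13.8% of all genes called lower. Il34 and Csf3 passed neither test, although under ribosomal scaling Csf3 was called higher in both, by 0.48 and 0.47, and Il34 in the first, by 0.27.

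**Figure D4:**
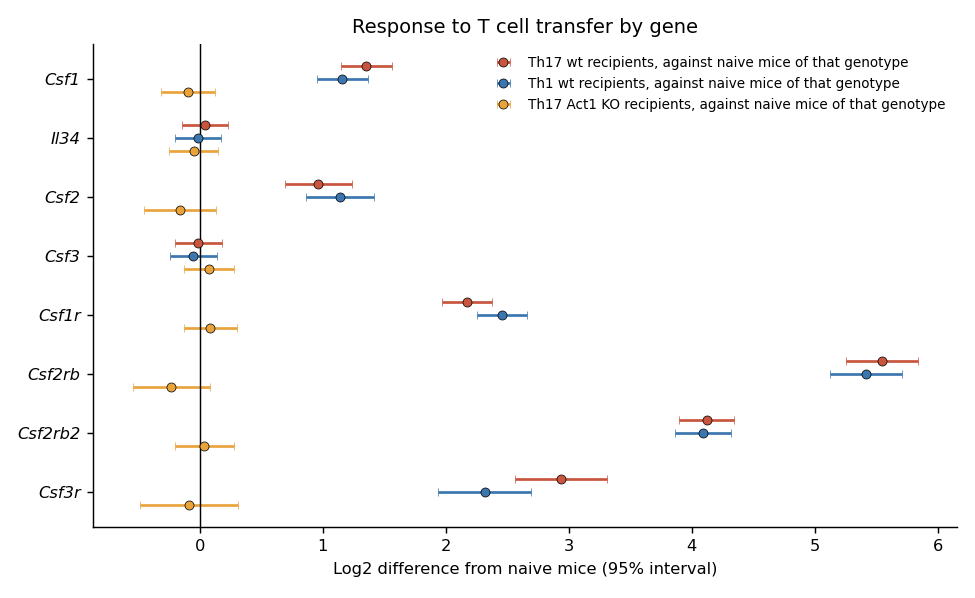
Log2 difference from naive mice of the same genotype (horizontal axis, 95% interval) for the 7 genes and Csf2rb2. Wild-type Th17 and Th1 recipients lie at 0.97 to 5.55 for the 5 called members and Csf2rb2, and the intervals of Act1 KO recipients cross 0 for all 8 genes.

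Monocyte, macrophage and most T cell markers moved with these genes, where 18.0% (Th17) and 16.7% (Th1) of all genes were called higher. Lists of resident cells went in different directions. All 13 measured monocyte and macrophage markers rose in Th17 and in Th1 recipients, with Arg1, an arginine-metabolising enzyme of alternatively activated macrophages, at least 328-fold and at least 204-fold. Their mean level was 8.76 to 9.10 on Th17 wt, 8.24 to 8.75 on Th1 wt and 3.35 to 3.45 on Naive wt arrays, and 3.39 to 3.52 on Th17 Act1 KO arrays. Of 11 T cell markers 10 rose and 1 fell in each transfer group, the last being Thy1, which neurons express too. The homeostatic microglia list split, with 5 of 10 markers higher and 4 lower in both, with Olfml3 (2.22 in Th17 recipients) and Tmem119 (1.96) among those higher and P2ry12 (-0.89) among those lower. In Th17 Act1 KO cords 0 markers of any of the 10 cell type lists were called against Naive Act1 KO, where 0% of all genes were. The part of these cells in the CSF genes was not tested.

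Other lists moved in wild-type recipients as follows. Of all genes, 18.0% were called higher and 25.5% lower in Th17 recipients, and 16.7% and 24.1% in Th1 recipients. Neutrophil markers rose for 6 of 12 in Th17 and 4 of 12 in Th1 recipients, and 6 were higher in Th17 than Th1 cords, while the granule genes Elane and Mpo were not called in any of the 3 comparisons. Also higher in Th17 than Th1 cords were 7 of 13 monocyte and macrophage, 4 of 11 T cell and 3 of 7 fibroblast markers. In that comparison 1.91% of all genes were called higher and 1.09% lower. The dendritic cell marker Itgax was lower by 1.48 in Th17 cords, and astrocyte and endothelial markers had 1 higher and 1 lower each. The part of these cells in the Th17 to Th1 differences was not tested. Of 6 dendritic cell markers Itgax and Batf3 were higher and Flt3 lower in each group of wild-type recipients than in naive cords. Neuronal markers fell for 12 of 13 (Th17, all but Tubb3) and 13 of 13 (Th1), and oligodendrocyte markers for 8 of 9 in each (all but Cldn11). Astrocyte markers were mixed, with 5 higher and 4 lower of 10 in Th17 and 3 and 4 in Th1 recipients. Endothelial markers were higher for 4 and lower for 1 of 8 (Th17) and higher for 3 and lower for 2 (Th1), and fibroblast markers, led by Col3a1, were higher for 4 of 7 and 3 of 7. Under ribosomal scaling the balance of the neutrophil, dendritic cell, astrocyte, endothelial and fibroblast lists moved towards lower calls, to 1 higher and 5 lower astrocyte markers in Th17 and 0 higher and 7 lower in Th1 recipients.

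Genes listed under CSF receptor signalling and feedback were mostly higher as well. Of 26 measured signalling and feedback genes, 22 rose in Th17 and 23 in Th1 recipients, with medians of 1.49 and 1.29. Of all genes, 18.0% and 16.7% were called higher. Whether CSF receptors were signalling was not tested, nor was the part of infiltrating cells in these levels. The phosphatase Ptpn6 (SHP-1) rose by 4.80 and 5.15, Ptprc by 5.03 and 5.28, and Tyrobp, the DAP12 adaptor, by 4.17 and 4.27. Socs3, the feedback inhibitor of G-CSF receptor and IL-6 signalling, rose by 4.70 in Th17 and 3.52 in Th1 recipients. It was the single gene of this list that differed between them, where 3.00% of all genes did, and was 1.19 ± 0.14 (SE) higher in Th17 cords (adjusted p = 2.4e-06, limma). Against naive Act1 KO cords, 0 of the 26 were called in Th17 Act1 KO recipients, where 0% of all genes were.

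Among 15 myeloid transcription factors, 13 rose in each group of wild-type recipients, beside 18.0% (Th17) and 16.7% (Th1) of all genes. Spi1 (PU.1), the master regulator of myeloid genes, rose by 4.03 and 3.93, and Irf8, needed for monocyte and dendritic cell development, rose by 4.56 and 4.89. Cebpd, a C/EBP factor, was 0.76 ± 0.12 (SE) higher in Th17 than Th1 cords (adjusted p = 0.000346, limma). Of 14 genes listed as inducers of GM-CSF or G-CSF and their receptors, 12 rose in Th17 and 9 in Th1 recipients, and Il23a and Il12b were called in neither. Under ribosomal scaling the inducers were 8 higher and 2 lower (Th17) and 6 higher and 3 lower (Th1), with a Th1 median of -0.01. The cytokine Il1b was 2.28 ± 0.20, its receptor Il1r1 0.86 ± 0.17 and Il6 0.98 ± 0.19 (SE) higher in Th17 than Th1 cords. Il17a was 0.40 higher, with an adjusted p of 0.0573 in limma. In Act1 KO recipients 0 genes of these lists were called, where 0% of all genes were.

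The genes whose pattern over the 24 arrays was most like each member were named as a description, since group differences dominate these correlations. For Csf2rb they were the chemokine Cxcl10, the NADPH oxidase subunit Ncf4 and the inhibitory receptor Lilrb4a (Pearson r = 0.997 for each). For Csf1r they were the complement gene C1qc (0.995), Unc93b1 and Psmb9 (0.992 for both). For Csf3r they were S1pr3 (0.986), Gpr84 and Ch25h (0.985 for both), and for Csf1 they were Tmem176b (0.987), Ninj1 (0.986) and Alas1 (0.982).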

How the data were processed

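Spinal cord RNA was hybridised to 24 Affymetrix HT-MG-430PM arrays. The deposited values are log2 intensities that the authors normalised with RMA (version not given in the sources used here), 1 value per probe set and array. Of 45118 probe sets, 28898 carried a single gene symbol in the platform annotation, 551 carried several and 15669 were unlisted here. The brightest single-symbol probe set by its mean over all arrays represented a gene, giving 17097 genes. Groups came from the sample labels. A model of 5 group means was fitted with limma 3.58.1 in R 4.3.3, with moderated tests and Benjamini-Hochberg adjustment over all genes (threshold 0.05). Single genes were also tested by exact two-sided permutation of arrays. Marker means are plain means of log2 values. The methods describe 5 mice a group, littermates of matched age, but the sources used here do not say whether each array holds a single animal, so p-values measure the spread between these arrays, whose number limits the precision. No detection calls were used. Named genes were all members, up to 4 genes of each pathway list and up to 3 of each marker list with the smallest adjusted p in a comparison (Thy1, Tmem119, P2ry12, Tubb3, Cldn11, Elane, Mpo, Il23a and Il12b were added after their values were seen), members of the beta chain family, and the 3 genes most correlated with each member whose highest group mean lay at least 1 above the median of all values. The members and lists were chosen with earlier results of these data known. The fit was tested on simulated data. Alternatives covered the scaling, probe set choice, filter, test, blocks and arrays left out.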

Additional observations from a re-analysis of the deposited data

Results flagged for a closer look

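In groups of 4 or 5 arrays, 3 single values of 35 member groups stood far from the rest of their group, where chance gives about 1 in 20 (1.75). Csf1 read 5.78 in Th17 Act1 KO replicate 3, below 6.09 to 6.15 in the other 3 arrays. Csf2 read 2.75 in Th17 Act1 KO replicate 2, above 2.36 to 2.41 in the others. Il34 read 3.92 in Th1 wt replicate 1, above 3.53 to 3.60 in the others.

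The response to Th17 cells differed between Act1 KO and wild-type mice by -5.78 for Csf2rb, -3.02 for Csf3r, -2.09 for Csf1r, -1.45 for Csf1 and -1.12 for Csf2 on the log2 scale, by the interaction term of the limma fit.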

How the results depend on the processing

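The counts of members called (5 and 5 in Th17 and Th1 against naive wild-type cords, 5 and 5 in the 2 genotype comparisons of Th17 recipients) stayed within 1.5 times under every alternative run. For Th17 against Th1 the count was 0, and it became 2 with the methods' t-test at an unadjusted p under 0.05, 0 to 1 with single arrays left out (Csf3r without Th1 wt replicate 4 or 5) and 1 without both. For the 2 comparisons with 0 members called within Act1 KO mice and between naive mice it stayed 0. Scaling to 63 ribosomal protein genes moved the median of all genes by -0.43 (Th17 against naive) and -0.49 (Th1 against naive), and the share of calls that were higher from 41.3% to 11.1% and from 41.0% to 9.40%. Under it Il34 was -0.39 in Th17 against naive cords and 0.27 in Th17 Act1 KO against Th17 wt cords, each turned in direction, Csf3 was -0.44 and -0.54 in Th17 and Th1 against naive cords, and Il34 was -0.50 in Th1 against naive cords. The 5 called members kept direction and call, and the cause was not tested. Of the lists, signalling genes were then 19 higher and 3 lower in both wild-type comparisons, and myeloid transcription factors 9 higher and 1 lower (Th17) and 10 higher and 2 lower (Th1). Neutrophil markers were 4 higher and 5 lower (Th17) and 2 higher and 8 lower (Th1), endothelial markers 4 and 4 and 1 and 3, dendritic cell markers 2 and 4 in both, and fibroblast markers 4 and 3 and 3 and 3. In the genotype comparisons of Th17 recipients, Csf3 was 0.48 and 0.47 higher (adjusted p = 0.000951 and 0.0175, limma). With the filter on dim genes, Csf2 and Csf3 were not tested, and a 2-fold minimum left Csf2 out in Th17 against naive cords. Replicate numbers did not pair the arrays, and with the replicate number as a replicate block the members called were 5, 5, 0, 0, 0, 5 and 5 over the 7 comparisons, unchanged. The exact Mann-Whitney test with adjustment called the same 5 members in Th17 Act1 KO against Th17 wt cords. In Th17 against naive Act1 KO cords it could hardly pass the threshold with 5 against 4 arrays and says nothing about stability. Across settings other than the unadjusted t-test, 0 to 8 of all genes were called in Th17 against naive Act1 KO cords, none of them a member. Low signal limits Csf2, Csf3 and Il34, whose group means were near or below the median of all values.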
